A study of Solanum lycopersicum with 2 samples.

Results

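The genes described here are 9 enzyme or enzyme-like genes of the flavonoid pathway and the regulator MYB12, 10 of the 34725 gene identifiers in the table. They were chosen by identifier and are PAL5 (Solyc09g007920), CHS1 (Solyc09g091510), CHS2 (Solyc05g053550), CHIL (Solyc05g010310), CHI (Solyc05g010320), F3H (Solyc02g083860), F3'H (Solyc03g115220), FLS (Solyc11g013110), DFR (Solyc02g085020) and MYB12 (Solyc01g079620). The deposited table does not pair identifiers with names. Of the 10 names, 7 occur as gene symbols in the RefSeq annotation of assembly SLM_r2.1, and all 7 lie there on the chromosome that the identifier numbers. The series sets red ripe fruit of wild-type tomato against fruit that overexpresses ALMT9, which encodes a channel for malate, to look for genes that change with it. In both groups fruit was picked at 49 days after flowering, from 3 plants per genotype. The extraction protocol calls the transgenic line OX1, and the sources used here do not give its promoter. A single library of total RNA stands for each genotype, and whether fruit was pooled is not stated in the labels.

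Flavonoids of tomato fruit are made from phenylalanine by a chain of enzymes. Phenylalanine ammonia-lyase (PAL) opens the phenylpropanoid pathway, chalcone synthase (CHS) makes naringenin chalcone, and chalcone isomerase (CHI) closes it to naringenin. Flavanone 3-hydroxylase (F3H), flavonoid 3'-hydroxylase (F3'H) and flavonol synthase (FLS) lead on to flavonols, while dihydroflavonol reductase (DFR) opens the branch to anthocyanins and proanthocyanidins. MYB12 is a transcription factor that activates genes of this pathway, and tomatoes without functional MYB12 have a colourless peel and look pink. The peel of tomato fruit is known for storing naringenin chalcone, the yellow substrate of CHI.

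Levels are RPKM, reads divided by gene model length and library size. The depth worked out from the RPKM values was 19736832 reads (wild type) and 19252026 reads (overexpression). With 1 library per genotype there was no replicate check and no test, and every difference below describes these 2 libraries. Ratios carry an exact 95% counting interval, which covers the sampling of reads and not the variation between plants, fruits or library preparations. The locus entered for ALMT9 stood at 0.0742 RPKM in wild-type fruit and 20.5 RPKM in overexpressing fruit, the direction its label gives. The 5 loci entered as markers of ripe fruit lay between 554 and 3979 RPKM in wild-type fruit and between 657 and 2011 RPKM in overexpressing fruit. Their sum was 9943 RPKM and 7206 RPKM. Their RPKM ratios were 0.505 for E8, 0.67 for PSY1, 0.72 for E4, 1.19 for PG2a and 1.31 for EXP1, on both sides of 1. Each was beyond counting error, as were those of 62.3% of all genes with a mean of at least 1 RPKM. At the many reads of such abundant loci even small departures from 1 exceed counting error. The part of ripening stage in the flavonoid values was not tested. Fewer cells of a type and less RNA per cell cannot be told apart in these bulk samples.

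The flavonoid genes that reached a mean of 1 RPKM lay within 2-fold between the libraries, in either direction. These were 6 of the 10, namely CHS1, CHS2, F3H, F3'H, FLS and MYB12, and this level was required for counting differences. None of the 6 was 2-fold apart on the log2(RPKM + 1) scale, against 12.4% of the 17287 genes that met the same level, 8.09% higher and 4.3% lower in overexpressing fruit. A count of 0 among 6 is near that background and is no finding about these genes. At 1.5-fold CHS1 alone passed, against 28.8% of the 17287 genes, 16.3% in the same direction. Directions were split, with 3 of the 6 higher and 3 lower in overexpressing fruit, where 51.2% of all such genes were higher. Their log2 differences ran from -0.53 for F3H to 0.63 for CHS1, with a median of -0.09 against 0.02 over all 17287 genes. This scale understates differences of weakly expressed genes. PAL5, CHI, DFR and CHIL had a mean below 1 RPKM and are described by their levels.

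**Figure D1:**
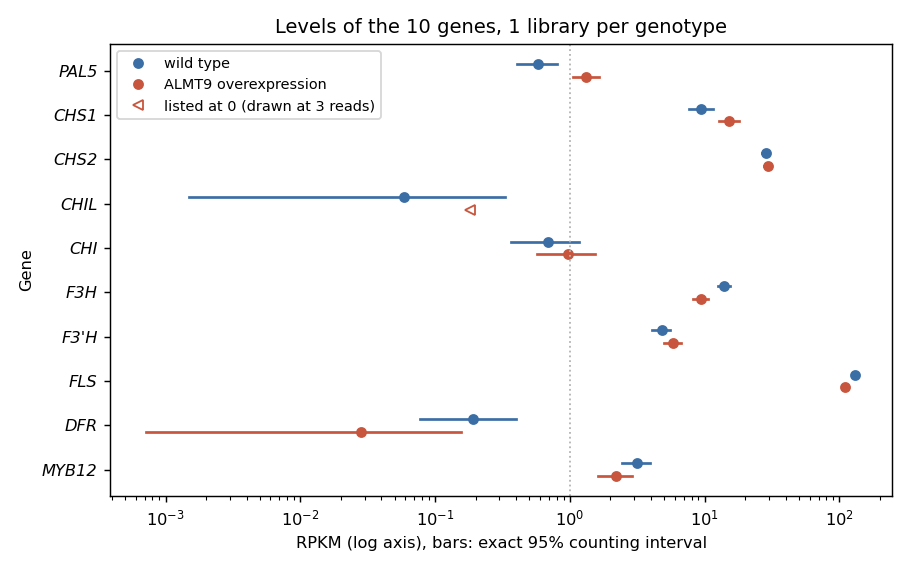
RPKM of the 10 genes on a log axis in wild-type (blue) and ALMT9-overexpressing fruit (red), with exact 95% counting intervals of 1 library each. FLS stood highest at 129.8 and 110.2 RPKM, PAL5, CHI, DFR and CHIL lay near or below 1 RPKM, and CHIL was listed at 0 in overexpressing fruit, where the open triangle marks the level of 3 reads, 0.181 RPKM.

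Phenylalanine ammonia-lyase gene PAL5 was weakly expressed and stood higher in overexpressing fruit. It was at 0.579 RPKM in wild-type fruit and 1.32 RPKM in overexpressing fruit, from at least 37 and 82 reads. The RPKM ratio was 2.27 (interval 1.52 to 3.45). The log2(RPKM + 1) difference was 0.55, since the pseudocount of 1 is as large as the level itself.

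The chalcone synthase genes CHS1 and CHS2 encode the first enzyme committed to flavonoids. CHS2 was at 28.4 RPKM in wild-type fruit and 29.4 RPKM in overexpressing fruit, a ratio of 1.04 (interval 0.951 to 1.13). CHS1 was at 9.46 and 15.2 RPKM, a ratio of 1.61 (interval 1.22 to 2.12). That interval may be too wide, since the reads were taken as the fewest that give these values. CHS2 thus lay within counting error of equal levels, and CHS1 was higher in overexpressing fruit by more than counting error. The direction of CHS2 reversed when the libraries were scaled to equal summed RPKM, with or without the 100 highest genes, and its log2 difference was then at most 0.04 from 0 in size.

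CHS2 was the more abundant chalcone synthase gene in both libraries, and its lead was smaller in overexpressing fruit. The ratio of CHS2 to CHS1 was 3.0 in wild-type fruit (interval 2.42 to 3.77), and 1.94 in overexpressing fruit (interval 1.62 to 2.33). The ratio in overexpressing fruit was 0.646 times that of the wild type (interval 0.483 to 0.86). CHS1 accounted for 25.0% of the summed RPKM of both genes in wild-type fruit and for 34.0% in overexpressing fruit. The labels do not say how reads matching both genes were treated, so the split between them is uncertain. Their sum was 37.9 RPKM in wild-type fruit and 44.6 RPKM in overexpressing fruit.

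Transcripts of the CHI and CHIL loci were scarce in both libraries. CHI was at 0.683 RPKM in wild-type fruit and 0.97 RPKM in overexpressing fruit, from at least 13 and 18 reads. Its ratio of 1.42 had an interval of 0.658 to 3.15, so a difference was not detectable at this depth. CHIL is named for a relative of CHI that is known from morning glory to enhance flavonoid production. It was at 0.0588 RPKM in wild-type fruit, from as few as 1 read, and was listed at 0 in overexpressing fruit. A count of 0 allows up to 3 reads, or 0.181 RPKM at the recovered length, and no ratio is given because both libraries lie at or under that limit. CHIL and CHI are adjacent identifiers in the table. The RefSeq annotation has no symbol CHIL and places the symbols CHI1 and CHI2 side by side, so it does not settle whether this locus is the CHI-like gene or another chalcone isomerase gene.

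Transcripts of this CHI locus lay far below those of the genes for the enzyme before it and the enzyme after it. Chalcone isomerase loci other than CHI and CHIL were not examined, so the level of the whole step is not known. The summed RPKM of CHS1 and CHS2 was 55.4 times that of CHI in wild-type fruit and 46.0 times in overexpressing fruit. For CHS2 alone the ratio to CHI was 41.6 in wild-type fruit (interval 24.2 to 78.3), and 30.4 in overexpressing fruit (interval 19.1 to 51.4). The change of this ratio between the libraries, 0.731 times, had an interval of 0.327 to 1.59 that includes no change. F3H, the enzyme gene after CHI, was again above it, by 20.4 times in wild-type fruit and 9.68 times in overexpressing fruit.

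The hydroxylase genes F3H and F3'H differed in how they compared between the libraries. F3H, whose enzyme turns naringenin into dihydrokaempferol, was at 14.0 RPKM in wild-type fruit and 9.39 RPKM in overexpressing fruit. Its ratio of 0.672 (interval 0.57 to 0.79) was the lowest among the 6 genes at or above the required level. F3'H, which adds a hydroxyl group to the B ring, was at 4.79 and 5.79 RPKM, a ratio of 1.21 (interval 0.978 to 1.49). F3H was thus lower in overexpressing fruit by more than counting error, and the interval of F3'H included no change. The ratio of F3H to F3'H went from 2.91 in wild-type fruit to 1.62 in overexpressing fruit, 0.556 times as large (interval 0.425 to 0.728).

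Flavonol synthase was by far the most abundant transcript of the 10 genes in both libraries. FLS was at 129.8 RPKM in wild-type fruit and 110.2 RPKM in overexpressing fruit, above 96.8% and 96.1% of all identifiers. The ratio was 0.849 (interval 0.802 to 0.898). FLS made up 67.9% of the summed RPKM of the 10 genes in wild-type fruit and 63.1% in overexpressing fruit. The sum of all 10 genes went from 191.0 to 174.5 RPKM, while the sum without FLS went from 61.3 to 64.3 RPKM. The second of these directions depended on the scaling, since with equal summed RPKM the sum without FLS was 60.5 RPKM in overexpressing fruit. It was 61.9 RPKM or more under the other scalings tried.

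DFR, at the entry to anthocyanins, was close to the detection limit. It was at 0.192 RPKM in wild-type fruit and 0.0282 RPKM in overexpressing fruit, from as few as 7 reads and 1 read. The ratio of 0.146 had a counting interval of 0.00325 to 1.14, so a difference was not detectable at this depth. FLS and DFR enzymes compete for dihydroflavonols, and the FLS transcript exceeded that of DFR by 675 times in wild-type fruit (interval 327 to 1680). In the overexpression library it did so by 3911 times (interval 701 to 154539).

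Seed storage protein and oleosin loci, entered as seed markers, differed strongly between the libraries. All 7 of these loci had lower values in overexpressing fruit, where 48.8% of all genes were below 0, and 6 were at least 2-fold lower, beside 4.3%, with a median log2 difference of -2.5. Their summed level was 195.9 RPKM in wild-type fruit and 35.8 RPKM in overexpressing fruit, and none was at 0. The part of seed RNA in the values of DFR, and of the other flavonoid genes, was not tested.

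MYB12 was expressed at a low level in both libraries. It was at 3.14 RPKM in wild-type fruit and 2.19 RPKM in overexpressing fruit, from at least 72 and 49 reads. Its ratio of 0.698 had an interval of 0.475 to 1.02, so counting error alone allowed equal levels. Genes that MYB12 is known to activate in tomato include CHS1, CHS2, F3H and FLS, and their ratios of 1.61, 1.04, 0.672 and 0.849 lay on both sides of 1. The identifiers whose pair of log2(RPKM + 1) values lay nearest to that of MYB12 were Solyc07g018040.1, at 3.17 and 2.16 RPKM, and Solyc05g050950.2, at 3.14 and 2.14 RPKM, at distances of 0.02 each. With only 2 libraries 43 genes lay within a distance of 0.1, so such likeness says little.

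**Figure D2:**
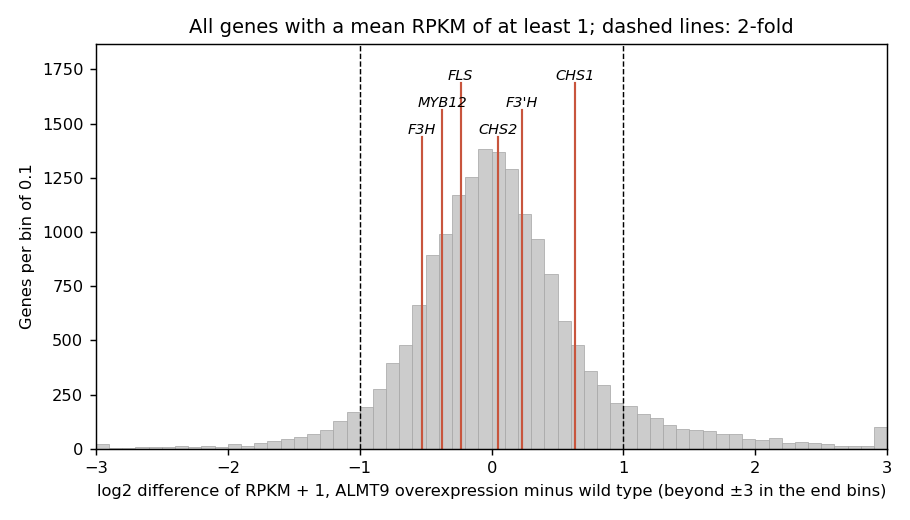
Number of genes (vertical axis) per bin of 0.1 of the log2 difference of RPKM + 1 between the overexpression library and the wild type (horizontal axis), for the 17287 genes at or above a mean of 1 RPKM. The red lines of the 6 flavonoid genes, from F3H at -0.53 to CHS1 at 0.63, all lie between the dashed lines at 2-fold.

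Against counting error, CHS1 lay above a ratio of 1 and F3H and FLS lay below it, while the intervals of CHS2, F3'H and MYB12 included 1. Of the 17287 genes, 62.3% had an interval that excluded 1, 32.5% above and 29.9% below, so 3 of 6 is not more than the rest of the transcriptome. Placed among all 17287 log2 differences, CHS1 exceeded 85.0% of genes, F3'H 66.2%, CHS2 52.9%, FLS 31.1%, MYB12 22.5% and F3H 14.8%. All 6 lay inside the bulk of the distribution, of which the plot of all log2 differences gives the shape.

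The order of the transcript levels was alike in both libraries apart from exchanges between neighbours. In the wild type the order from the highest was FLS, CHS2, F3H, CHS1, F3'H, MYB12, CHI, PAL5, DFR and CHIL. In the overexpression library CHS1 stood above F3H and PAL5 above CHI. The exchange of CHS1 and F3H exceeded counting error on both sides, since their ratio was 0.677 in wild-type fruit (interval 0.532 to 0.854), and 1.62 in overexpressing fruit (interval 1.31 to 2.0). CHI and PAL5 could not be ordered in either library, as their ratio was 1.18 (interval 0.576 to 2.27) in wild-type fruit and 0.737 (interval 0.416 to 1.24) in overexpressing fruit. DFR and CHIL rest on too few reads to be ordered. Each other pair of neighbours differed by more than counting error. The closest of them were MYB12 and F3'H in wild-type fruit, with F3'H 1.53 times as high and an interval of 1.15 to 2.04. In the overexpression library they were F3H and F3'H, at 1.62 times and an interval of 1.34 to 1.96, and MYB12 and PAL5, at 1.66 times and an interval of 1.14 to 2.4.

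Genes around the flavonoid pathway were described from lists of loci entered from published tomato assignments. No table was at hand to check these, and their identifiers are not paired with names here. Of 11 further loci entered for PAL, 2 were at 0 in both libraries, and 4 exceeded counting error, all of them higher in overexpressing fruit. The intervals of the other 5 included 1, 4 of them with at most 3 recovered reads in a library. Among all genes with a mean of at least 1 RPKM, 32.5% had an interval above 1. Not all of the PAL loci beyond counting error reached that mean. Of the 11 loci, 4 reached a mean of 1 RPKM. All 4 of these had log2 differences above 0, beside 51.2% of all genes. Among the same 4 loci, 3 were at least 2-fold higher, beside 8.09%, and the median log2 difference was 1.04. The remaining 1 of these had a ratio of 1.71 (interval 0.866 to 3.49), from at least 15 and 25 reads. These are the fewest reads that give its values, 8.54 and 14.6 RPKM, so the interval may be too wide. Whether this locus differed beyond counting error is thus not settled. The most abundant in overexpressing fruit went from 6.25 to 15.3 RPKM, a ratio of 2.44 (interval 2.13 to 2.8), and the summed level of the 11 went from 19.3 to 43.5 RPKM.

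Loci entered for cinnamate 4-hydroxylase and 4-coumarate-CoA ligase, the steps between PAL and CHS, did not share a direction. Of the 3 with a mean of at least 1 RPKM, 2 were at least 2-fold higher in overexpressing fruit and 1 was at least 2-fold lower, beside 8.09% and 4.3% of all genes. The lower one, a ligase locus, was also by far the most abundant, at 280.0 RPKM in wild-type fruit and 133 RPKM in overexpressing fruit, a ratio of 0.476 (interval 0.46 to 0.492). The hydroxylase locus went from 0.592 to 2.67 RPKM and the other ligase locus from 0.827 to 3.95 RPKM. Both reached the required mean only through their level in overexpressing fruit, so their count as higher is partly set by that filter.

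The branch to chlorogenic acid draws on the same coumaroyl-CoA as chalcone synthase. All 3 loci examined, entered for the transferases HCT and HQT and for the hydroxylase C3H, were above 0 on the log2 scale, beside 51.2% of all genes, and 2 were at least 2-fold higher, beside 8.09%. The HQT locus, the most abundant, went from 207.5 to 343.3 RPKM, a ratio of 1.65 (interval 1.6 to 1.71). The HCT locus went from 9.96 to 24.6 RPKM and the C3H locus from 3.57 to 9.53 RPKM.

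Genes of the anthocyanin branch were weakly expressed or at 0, apart from 1 regulator locus at 43.8 and 52.1 RPKM. Of 6 loci entered for its later enzymes, 2 had a mean of at least 1 RPKM, at log2 differences of -0.44 and 0.2, and the highest level in either library was 6.18 RPKM. Of 8 loci entered for its MYB, bHLH and WD40 regulators, 4 were at 0 in both libraries, and only 2 reached a mean of 1 RPKM, at log2 differences of -0.05 and 0.25. On the log2(RPKM + 1) scale neither list held a locus 2-fold apart, beside 12.4% of all genes with a mean of at least 1 RPKM. By RPKM ratio 1 enzyme locus was lower by more than counting error, at 0.627 (interval 0.415 to 0.939). Among the regulator loci 1 was higher by more than counting error, at 1.19 (interval 1.09 to 1.3). Of all genes at that mean, 29.9% had an interval below 1 and 32.5% above 1, so such small counts are no finding about these lists. Loci entered for the light-signal regulators HY5, COP1 and BBX20, which act upstream of flavonoid genes, did not all differ beyond counting error. The HY5 locus was at 16.5 and 15.3 RPKM, a ratio of 0.93 whose interval of 0.782 to 1.11 includes 1. The BBX20 locus went from 170.9 to 97.2 RPKM, a ratio of 0.569 (interval 0.537 to 0.602). The COP1 locus went from 28.6 to 13.8 RPKM, a ratio of 0.483 (interval 0.435 to 0.536), and its log2(RPKM + 1) difference of -1.0 lay just short of 2-fold. Intervals below 1, as for the BBX20 and COP1 loci, were found for 29.9% of all genes with a mean of at least 1 RPKM.

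Flavonoids of tomato fruit sit mainly in the epidermis, and loci entered as epidermis and cuticle markers had nearly equal sums in the libraries, 75.8 RPKM in wild-type fruit and 75.9 RPKM in overexpressing fruit. Of the 8 loci, 6 were higher in overexpressing fruit and 2 lower, where 51.2% of all genes with a mean of at least 1 RPKM were higher. The 2 with a mean of at least 1 RPKM, which made up most of the sum, had log2 differences of -0.11 and 0.06. The lower of them, the CER6 locus, was below a ratio of 1 by more than counting error, at 0.925 (interval 0.871 to 0.981). The other 6 were weak, with a mean below 1 RPKM, and 4 of them were higher in overexpressing fruit by more than counting error. The share with an interval above 1 was 32.5% among genes with a mean of at least 1 RPKM, a level these 6 did not reach. The cutin synthase locus CD1 went from 0.0931 to 1.76 RPKM, from as few as 2 reads against 37. The loci entered for CYP86A69, GPAT6 and TTS1 had ratios of 3.17 (interval 1.57 to 6.93), 2.48 (interval 1.23 to 5.33) and 2.42 (interval 1.49 to 4.03). The locus entered for SHN3, a cuticle regulator, rested on as few as 1 read in wild-type fruit and was listed at 0 in overexpressing fruit, which shows no difference. The part of peel content in the flavonoid values was not tested.

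**Figure D3:**
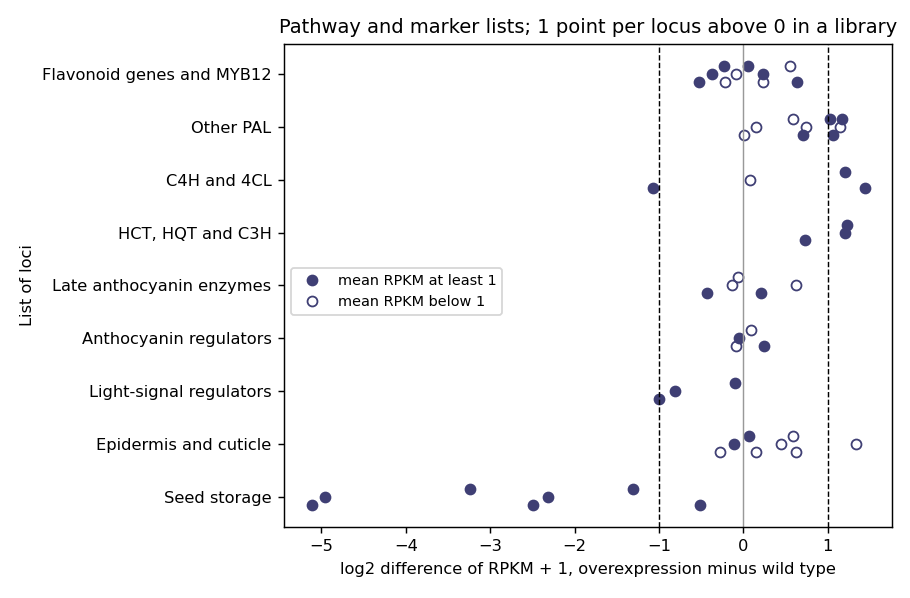
log2 difference of RPKM + 1 between the overexpression library and the wild type (horizontal axis) for each locus above 0 in a library, by list (vertical axis), filled where the mean RPKM was at least 1. The flavonoid genes lie on both sides of 0 within 2-fold, the PAL loci lie above 0, and the seed storage loci reach -5.11.

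Neighbouring loci, taken as the 3 identifiers before and the 3 after each gene, were examined for differences shared along the chromosome. Around PAL5, the loci Solyc09g007890, Solyc09g007900 and Solyc09g007910 were higher in overexpressing fruit, with RPKM ratios of 6.49, 2.44 and 2.93, beside 2.27 for PAL5 itself. The ratio of 6.49 had an interval of 1.91 to 34.3, from as few as 3 reads in wild-type fruit. These 3 loci are among the 11 further PAL loci counted above. The second locus after PAL5, Solyc09g007940, is not on that list and had a ratio of 6.97 (interval 2.71 to 22.8), at 0.206 and 1.44 RPKM. In the RefSeq assembly SLM_r2.1 PAL5 lies next to PAL3, and how the counting split reads between near-identical neighbours is not stated.

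The locus before FLS, Solyc11g013100, was at 897 RPKM in wild-type fruit and 748 RPKM in overexpressing fruit, the highest level among all neighbours examined. Its ratio was 0.834 (interval 0.793 to 0.877), which overlaps the interval of FLS. Neither the strand setting of the counting nor the extent of both gene models is stated, and whether the loci shared reads was not tested.

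The neighbours of all 10 genes came to 54 different loci, of which 32 reached a mean of 1 RPKM. Of these 32, 19 had a log2 difference above 0, beside 51.2% of all genes at that level. In overexpressing fruit 6 were at least 2-fold higher, beside 8.09%, and 2 at least 2-fold lower, beside 4.3%. Among them, the locus at the second place after F3H, Solyc02g083880, went from 3.87 to 16.3 RPKM. Around MYB12, 5 of 6 neighbouring loci were lower in overexpressing fruit, where 48.8% of all genes were below 0, with log2 differences from -1.09 to -0.39, and the locus directly before it, Solyc01g079610, was higher, at 11.4 and 36.7 RPKM. The MYB12 difference of -0.38 was the smallest in size among these lower values. Around DFR, 5 of 6 loci had higher values in overexpressing fruit, where 51.2% of all genes were above 0, 1 of them within counting error of equal levels, and Solyc02g085010 stood highest among their ratios, at 11.1 and 56.9 RPKM. The locus directly after F3'H, Solyc03g115230, was at 145 RPKM in wild-type fruit and 15.5 RPKM in overexpressing fruit. These blocks were singled out after their values were seen.

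**Figure D4:**
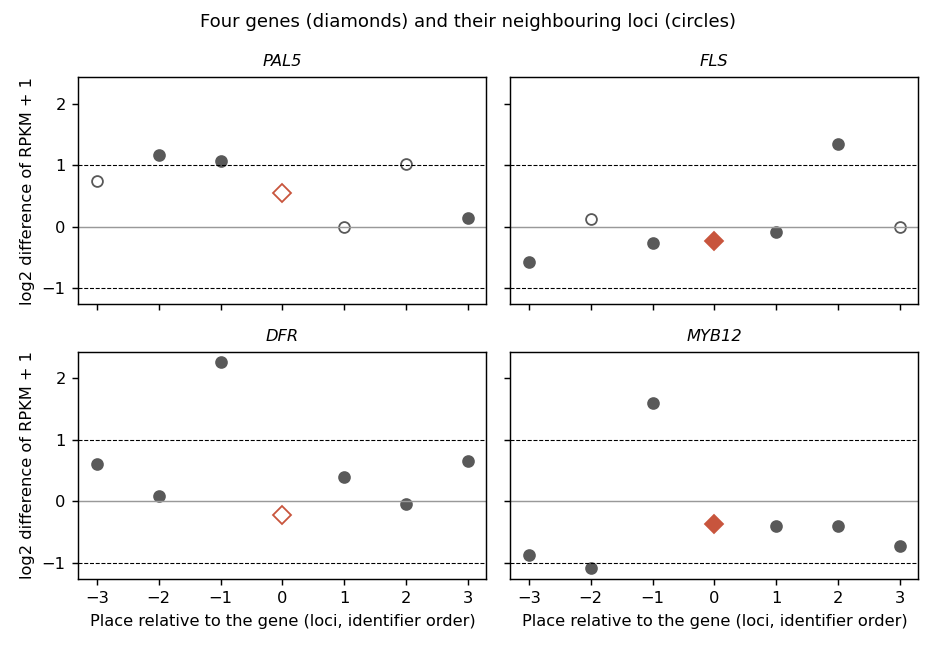
log2 difference of RPKM + 1 between the overexpression library and the wild type (vertical axis) for PAL5, FLS, DFR and MYB12 (diamonds) and the 3 loci on each side by identifier order (circles), filled where the mean RPKM was at least 1. The loci before PAL5 lie above 0, and 5 of 6 loci around MYB12 lie below 0.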

How the data were processed

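The authors deposited RPKM values per gene and library. TopHat, an aligner, is the tool listed in the submitters' processing notes. The sources used here do not give the counting tool, the genome build or the treatment of shared reads. Columns were assigned by sample titles and groups by genotype. Low RPKM values fall on steps of 1 read. Library totals were taken as the largest at which lengths of weak genes came out whole, and each gene's reads from the shortest length of at least 60 bp that made both values whole, which succeeded for 24426 of 24429 genes above 0. Read numbers are thus minimal, and intervals may be too wide. The steps were tested on data simulated from the recovered lengths and reads, which cannot show whether the true lengths and reads are larger. Differences are log2((overexpression + 1)/(wild type + 1)). Ratios have Clopper-Pearson 95% intervals, levels Poisson ones, and changes of a ratio of genes exact conditional ones. All cover counting error only. The text names all 10 genes, the ALMT9 locus, the 2 identifiers nearest to MYB12, and neighbours, which were singled out after their values were seen. Members and lists were chosen with earlier results of these data known, and the ripe fruit list was added last. Alternatives covered pseudocount, filter, scaling and threshold. Calculations used Python 3.11.15, numpy 2.4.6, scipy 1.17.1 and pandas 2.3.3.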

Additional observations from a re-analysis of the deposited data

How the results depend on the processing

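Of 99 values of single flavonoid genes under alternatives, 97 kept their direction, and both exceptions were CHS2 under scaling to equal sums. Changes of pseudocount or filter cannot reverse the direction of a single gene. Most of these 99 values were thus bound to keep it, and only the scalings could reverse it. The number of flavonoid genes 2-fold apart, 0, was 1 (CHS1) at a 1.5-fold threshold, which 28.8% of all genes passed. It was 2 (PAL5 higher and DFR lower) with no pseudocount and no filter, an alternative chosen after seeing the data, since the pseudocount shrinks differences of weak genes. That alternative called 4928 genes in all, and no share of all genes was worked out for it. The counting interval of the DFR ratio included 1. The median of the flavonoid genes, -0.09, was 0.05 with a mean RPKM of at least 5, where MYB12 left the list. It was also 0.05 with no pseudocount and no filter. The summed level in the overexpression library, 174.5 RPKM, was 164.0 RPKM with equal summed RPKM and 168.0 RPKM without the 100 highest genes in the sum. The 2142 genes 2-fold apart in all were 1009 with a pseudocount of 5, 1414 with a mean RPKM of at least 5, 4982 at 1.5-fold, 435 at 4-fold and 4928 with no pseudocount and no filter. No paired analysis was possible because there is 1 library per genotype, so leaving out a replicate was not possible either. Depth limits CHI, DFR and CHIL.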
